A study of Mus musculus with 8 samples.

Results

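Interferon-stimulated genes were followed in the livers of wild-type mice and of mice labelled heterozygous for eIF2α. This protein is a subunit of the factor that brings the initiator tRNA to ribosomes, and it is phosphorylated under stress to slow translation. The 37 genes were chosen by symbol, through the gene names of the authors' deposited table of comparisons, and all 37 were found among the 56077 genes and loci of the deposited count table. They fall into 30 genes of the type I interferon response and 7 genes that respond mainly to interferon-gamma, including antigen processing genes. All 37 passed the filter on low counts and were tested among 14261 genes. The comparison was between 4 wild-type mice and 4 mice labelled heterozygous (flox/+) for eIF2α. All were C57BL/6 and 6 months old, on a regular light cycle, fed freely and killed in the early morning. Neither a recombinase nor a promoter that would drive it is named in the labels, whose growth protocol calls the mice wild-type. RNA depleted of ribosomal RNA came from snap-frozen whole liver, without any treatment or infection in the labels. Libraries are named W32, W33, W76 and W90 for wild type and H11, H12, H15 and H75 for heterozygotes, after the columns of the count table. The labels do not say whether the mice came from separate litters, and p-values measure the spread between these samples alone.

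Interferons are secreted proteins that warn cells of infection. Type I interferons bind IFNAR1 and IFNAR2 and act through the kinases JAK1 and TYK2 on a complex that holds STAT2 and IRF9 and binds the interferon-stimulated response element, or ISRE. Interferon-gamma binds IFNGR1 and IFNGR2 and acts on genes through the gamma-activated site, or GAS, and through IRF1. Among the induced genes is Eif2ak2, which encodes PKR, a kinase that phosphorylates eIF2α when it binds double-stranded RNA. In the liver, hepatocytes, Kupffer cells and sinusoidal endothelial cells all respond to interferons, and some response genes are transcribed at a low basal level without infection.

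Promoter sequence is given first, because the factors of the interferon pathways read these motifs. RefSeq promoter windows of GRCm38.p6, from 250 bases before to 50 bases after the start of a gene, were found for 27 of the 37 genes. Mx1, Usp18, Parp9, Dhx58, Parp14, Zbp1, Mx2, Ifi27, Oas2 and Rtp4 were not matched. The core of the ISRE was written as GAAA, any 2 bases and GAAA, and read on either strand. It occurred in a window of 12 of the 27 genes (44.4%), compared with 3.99% of the 27025 genes with a window. The 12 were 9 of 20 type I genes and 3 of 7 interferon-gamma genes, so both classes held them. The letters TTCNNNGAA, the GAS, occurred in a window of 7 of the 27 genes (25.9%), compared with 9.55% of all genes with a window. These 7 were 4 of 20 type I genes and 3 of 7 interferon-gamma genes. The matches of the 2 motifs overlapped each other in Bst2, and in Bst2, Isg15, Gbp3 and Oas1a neighbouring ISRE matches shared bases. These are matches of letters, and no binding was measured.

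The stretches below carry these motifs, or belong to the genes on which the values turn, and capitals mark the matches as read on the strand of the gene. Isg15 is shown at chr4:156200855-156200916 (minus strand) and Ifit1 at chr19:34640765-34640833 (plus strand), as type I genes. The 3 guanylate-binding protein genes are on the plus strand, with Gbp2 at chr3:142620584-142620633, Gbp3 at chr3:142559979-142560034 and Gbp7 at chr3:142530263-142530312. Irf1 is shown at chr11:53769904-53769952 (plus strand) for its GAS. The 150 bases before the start of Samd9l, at chr6:3399572-3399721 (minus strand), held neither string of letters, nor did the rest of its window.
Isg15: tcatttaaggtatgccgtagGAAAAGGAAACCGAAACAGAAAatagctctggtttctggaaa
Ifit1: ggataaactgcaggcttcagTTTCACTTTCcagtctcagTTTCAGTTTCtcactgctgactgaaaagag
Gbp2: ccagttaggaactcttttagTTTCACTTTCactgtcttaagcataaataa
Gbp3: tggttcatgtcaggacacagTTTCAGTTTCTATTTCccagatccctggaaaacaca
Gbp7: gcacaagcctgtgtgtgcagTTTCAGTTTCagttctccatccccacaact
Irf1: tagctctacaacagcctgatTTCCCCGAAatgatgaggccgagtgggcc
Samd9l: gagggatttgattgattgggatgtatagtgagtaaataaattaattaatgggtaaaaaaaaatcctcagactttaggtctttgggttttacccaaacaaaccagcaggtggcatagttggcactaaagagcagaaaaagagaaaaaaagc

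Libraries held 22177979 to 28564357 counts. Expression is given as CPM, the count of a gene normalized to the size of the library, after scaling with TMM factors. Eif2s1, which encodes eIF2α, had 28.4 to 32.8 CPM in the wild-type libraries and 20.5 to 25.1 CPM in the heterozygous libraries, so the ranges did not overlap. The mean in heterozygotes was 73.8% of that in wild type (log2 fold change -0.44, SE 0.095, edgeR adjusted p = 0.315, DESeq2 adjusted p = 0.0156). The 5 hepatocyte markers summed to 71826 to 98994 CPM in every wild-type library and 83766 to 93788 CPM in every heterozygous library. Within the heterozygous group, H15 differed most from the others, with a chi-square per gene of 163 against H12 and 133 against H75, where the pair of H12 and H75 had 25.2.

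At the level of single genes, edgeR called 0 of the 37 and 0% of all genes tested, so small differences stay undecided. The groups did not overlap for 1 of the 37, where 2.32% of all genes were lower without overlap. Samd9l, a type I antiviral gene, was lower in all 4 heterozygous livers, at 54.6% of the wild-type mean. Irf1, an interferon-gamma response factor, had the highest fold change (1.85-fold), but through 2 of the 4 heterozygous livers. Of the 37 genes, 29 had a heterozygous mean below wild type (78.4%), compared with 48.9% of all genes tested. Most of these differences were small beside their errors, with a median log2 fold change over the 37 of -0.17, compared with 0.0051 over all genes tested. Without W32 the median over the 37 was -0.088 and 22 of them had a lower heterozygous mean, compared with 48.3% of all genes.

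None of the 37 genes passed an adjusted p of 0.05 in edgeR's quasi-likelihood test with Benjamini-Hochberg adjustment over all genes, where 0% of all genes passed. Limma-voom called 0 of the 37 as well, and 0% of all genes. DESeq2 called 1, Samd9l, as lower, where it called 0.464% of all genes as lower and 0.692% as higher. At an unadjusted p under 0.05 edgeR gave 1 lower gene, Samd9l (2.70% of the members), compared with 4.44% of all genes. It gave 1 higher gene, Irf1, compared with 4.90% of all genes (9.34% in either direction). The 4 heterozygous values lay entirely below the 4 wild-type values for 1 gene, Samd9l, compared with 2.32% of all genes. They lay entirely above for 0 of the 37, compared with 2.06% of all genes. The edgeR shares and the shares of groups that did not overlap are near or below those of all genes tested, and the DESeq2 count is a single gene. The authors' deposited table gave 1 of the 37 an adjusted p under 0.05, Samd9l (log2 fold change -0.87, adjusted p = 0.00284), where 0.552% of its genes had one, and marked it as not significant.

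**Figure D1:**
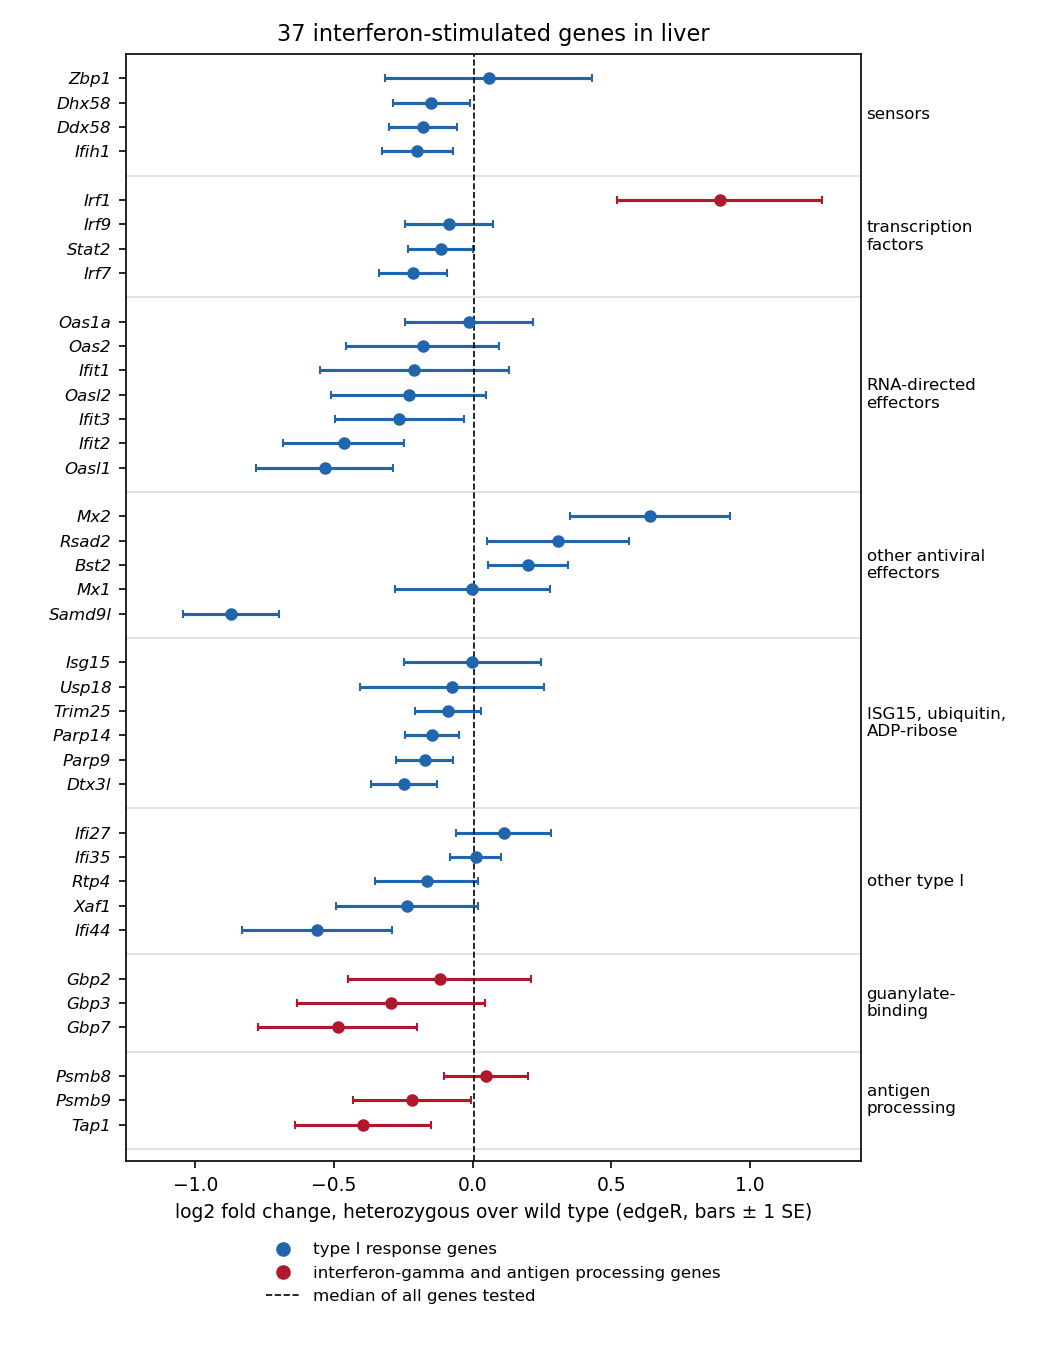
Log2 fold change of heterozygous over wild-type liver for the 37 genes (points, edgeR) with 1 standard error on each side, grouped by role; the dashed line is the median of all genes tested. Samd9l lies lowest at -0.87 and Irf1 highest at 0.89, and 29 of 37 points lie below 0.

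Of the 4 sensors of foreign nucleic acid, 3 had lower means in heterozygous livers. Ddx58, which encodes RIG-I, a sensor of viral RNA ends, had 21.4, 19.2, 22.5 and 19.9 CPM in W32, W33, W76 and W90. In H11, H12, H15 and H75 it had 19.0, 16.4, 22.2 and 15.8 CPM. H15 lay among the wild-type libraries and the other heterozygous libraries lay below all of them. The log2 fold change was -0.18 (SE 0.12, edgeR adjusted p = 0.678). Ifih1, which encodes MDA5, a sensor of long double-stranded RNA, had 21.1 to 30.9 CPM in wild-type livers, against 20.9 to 24.6 CPM in heterozygotes (log2 fold change -0.20, SE 0.13). Dhx58, which encodes the related helicase LGP2, had 6.92 to 8.29 and 5.40 to 7.63 CPM (-0.15, SE 0.14). The groups overlapped for all 3 helicase genes. The exception among the sensors was Zbp1, which encodes a sensor of Z-form nucleic acid that can start necroptosis, with a log2 fold change of 0.06 (SE 0.37). Its values were 6.30, 2.32, 2.24 and 1.89 CPM in wild-type livers, and 3.86, 3.16, 2.55 and 3.75 CPM in heterozygous livers. W32 was thus the highest of all 8 libraries and the other wild-type libraries the lowest 3. Without W32, Zbp1 was higher in all heterozygous livers (log2 fold change 0.63, SE 0.22, edgeR adjusted p = 0.755), the 1 member of which this held, compared with 3.13% of all genes. Zbp1 was described after its values were seen.

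Among the transcription factors, Stat2 and Irf9, which encode parts of the ISRE-binding complex, had overlapping groups. Stat2 had 58.5, 62.7, 59.2 and 56.0 CPM in wild-type livers, and 62.4, 42.6, 59.7 and 53.5 CPM in heterozygous livers. H12 was the low library, and the others lay near the wild-type values (log2 fold change -0.12, SE 0.12, edgeR adjusted p = 0.790). The mean of Irf9 was 25.0 ± 4.82 CPM in the wild type, compared with 23.6 ± 4.02 CPM in heterozygotes (SD, n = 4 each). Its log2 fold change of -0.09 (SE 0.16) turned to 0.05 without W32. Irf7, the factor that amplifies type I interferon production, had 24.3 to 30.4 CPM in wild-type livers, against 19.0 to 26.5 CPM in heterozygotes (-0.21, SE 0.12, edgeR adjusted p = 0.630).

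Irf1, at chr11:53770014-53778374 on the plus strand of GRCm38, was the member that varied most among heterozygous livers. Its values were 24.0, 22.4, 17.7 and 17.1 CPM in W32, W33, W76 and W90. They were 25.9, 64.6, 15.1 and 45.1 CPM in H11, H12, H15 and H75. H12 and H75 were well above every wild-type library, H11 just above, and H15 was the lowest of all 8. The coefficient of variation was 16.9% in wild-type and 57.9% in heterozygous livers. The log2 fold change was 0.89 (SE 0.37, edgeR adjusted p = 0.503). It was 0.50 without H12 (edgeR adjusted p = 0.926) and 1.15 without H15, its lowest library (edgeR adjusted p = 0.0694). DESeq2 without H15, an analysis added after the data were seen, gave an adjusted p of 0.000784. That fit called 2.72% of all genes as higher and 2.64% as lower.

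The 7 RNA-directed effectors had 7 of 7 means below wild type in heterozygous livers, with a median log2 fold change of -0.23. The group holds IFIT proteins, which bind viral RNA, oligoadenylate synthetases, which activate the nuclease RNase L, and their relatives. Oasl1, which restrains translation of Irf7, had 8.24, 8.004, 12.8 and 11.5 CPM in wild-type livers. In H11, H12, H15 and H75 it had 6.47, 5.70, 10.6 and 5.15 CPM, so that only H15 overlapped wild type. The log2 fold change was -0.53 (SE 0.25, edgeR adjusted p = 0.548), and -0.81 without H15 (edgeR adjusted p = 0.0842). Ifit2, an RNA-binding inhibitor of translation, had 3.03, 3.29, 2.78 and 2.16 CPM in wild-type livers, against 2.57, 1.58, 1.997 and 2.001 CPM (-0.47, SE 0.22, edgeR adjusted p = 0.550). Its groups overlapped through W90, the lowest wild-type library, and H11, the highest heterozygous library. Ifit3, a partner of IFIT1, had 7.11 to 10.6 CPM in wild-type livers. In heterozygous livers it fell into separate levels, 5.16 and 5.06 CPM in H12 and H15 and 8.76 and 9.56 CPM in H11 and H75. The fold changes of Ifit1, Oas2, Oasl2 and Oas1a were -0.21, -0.18, -0.23 and -0.013 on the log2 scale, each smaller than its SE of 0.23 to 0.34.

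Samd9l stood apart among the other antiviral effectors. The gene encodes a cytoplasmic protein that restricts poxviruses and inhibits protein synthesis, and it lies at chr6:3372257-3399572 on the minus strand, with no exon of another gene on top of it in GENCODE. Its values were 15.4, 11.1, 14.5 and 9.91 CPM in W32, W33, W76 and W90. In H11, H12, H15 and H75 they were 8.31, 6.43, 7.18 and 5.85 CPM. Every heterozygous library lay below every wild-type library, with H15 among the others in contrast to Ddx58, Oasl1 and Irf1. These values rest on 262 to 451 counts per wild-type and 117 to 207 counts per heterozygous library. The mean was 12.7 ± 2.63 CPM in the wild type, compared with 6.94 ± 1.06 CPM in heterozygotes (SD, n = 4 each). The log2 fold change was -0.87 (SE 0.17), with an edgeR adjusted p of 0.268, a limma-voom adjusted p of 0.345 and a DESeq2 adjusted p of 0.00296. Under the 19 alternatives the log2 fold change ran from -0.98 to -0.77 and the adjusted p from 0.00197 to 0.633. The groups stayed apart under each alternative, including the removal of each library in turn.

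Of the other 4 members of this role, 3 had a higher mean in heterozygous livers. Mx2, a dynamin-like GTPase gene that GENCODE annotates as a polymorphic pseudogene, had 3.34, 3.72, 3.47 and 2.31 CPM in wild-type livers. In H11, H12, H15 and H75 it had 5.34, 7.40, 2.72 and 4.50 CPM, so all but H15 lay above wild type (log2 fold change 0.64, SE 0.29, edgeR adjusted p = 0.538). Bst2, which encodes tetherin, a protein that holds budding virus on the cell surface, had 127, 110, 86.1 and 98.4 CPM in wild-type livers, against 108, 124, 105 and 147 CPM in heterozygotes. The groups overlapped (0.20, SE 0.14). Rsad2, which encodes viperin, had 4.43, 3.32, 5.55 and 5.30 CPM in wild-type livers, and 6.79, 6.01, 3.23 and 7.004 CPM in H11, H12, H15 and H75. As with Mx2, H15 was low and the other heterozygous libraries lay above wild type (0.31, SE 0.26), and this gene was described after its values were seen. Mx1, another GTPase gene, was the least expressed member at 0.552 to 0.964 CPM and had a log2 fold change of -0.0020.

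**Figure D2:**
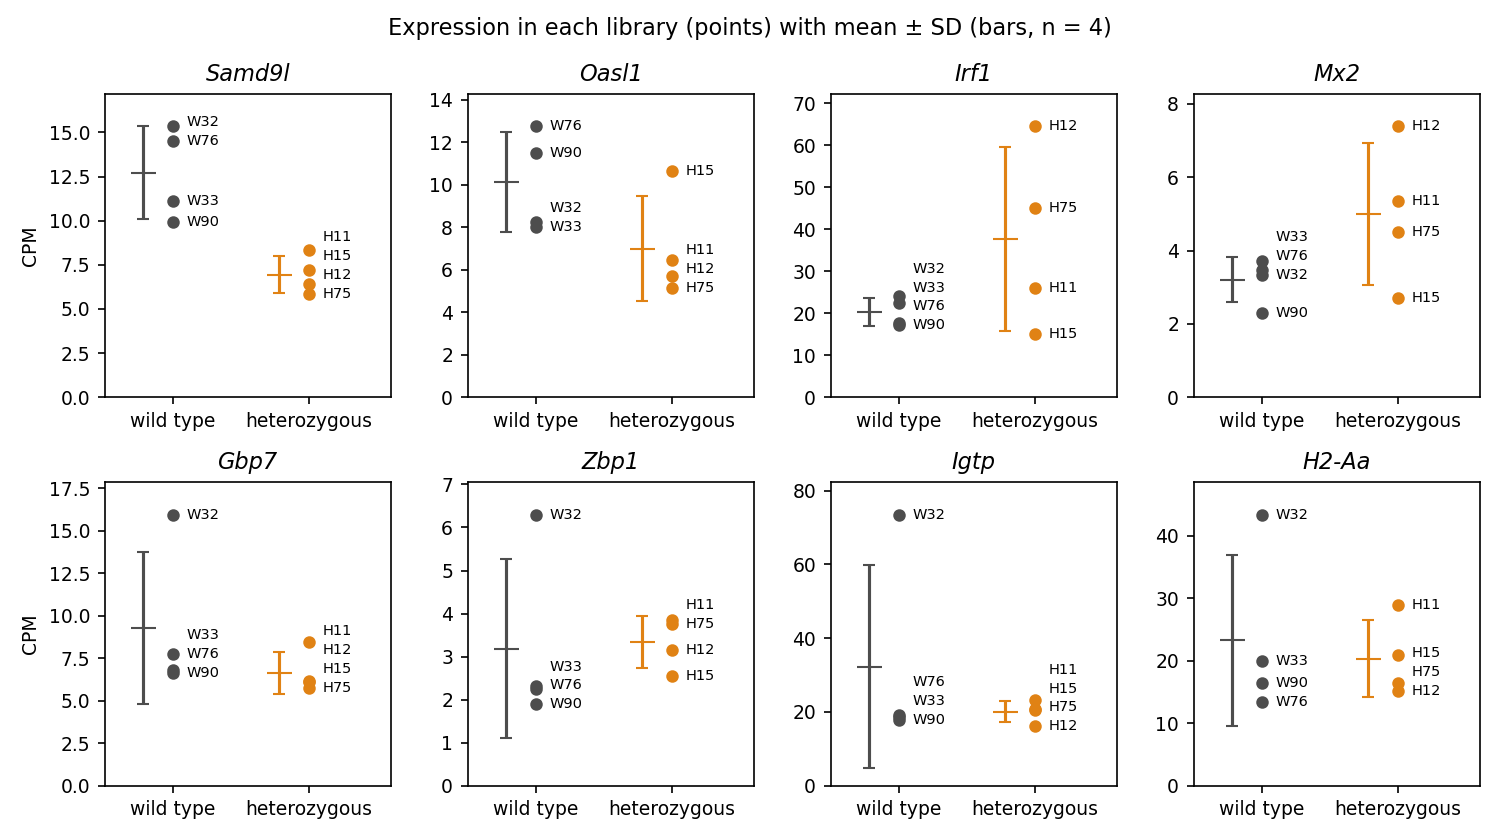
CPM in each library (points, named) for 6 members and for Igtp and H2-Aa, with the mean and SD (bars, n = 4). Samd9l is the gene whose groups do not overlap; H15 (15.1 CPM) is far below H12 (64.6 CPM) in Irf1, and W32 is far above the other wild-type libraries in Gbp7, Zbp1, Igtp and H2-Aa.

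The genes of ISG15 conjugation, ubiquitin and ADP-ribose transfer had 6 of 6 means below wild type, with a median log2 fold change of -0.12. Parp9 and Dtx3l encode partners that form an ADP-ribose and ubiquitin transferase. Parp9 had 50.5, 39.5, 46.2 and 39.98 CPM in wild-type livers, against 38.4, 35.9, 40.2 and 41.8 CPM (-0.17, SE 0.10). Dtx3l had 49.5, 41.7, 51.5 and 38.8 CPM, against 41.4, 35.3, 42.2 and 34.0 CPM (-0.25, SE 0.12, edgeR adjusted p = 0.559). W32 and W76 were the highest libraries of both genes, and the groups overlapped. Parp14, another ADP-ribose transferase, had 22.9 to 28.0 and 21.6 to 25.2 CPM (-0.15, SE 0.097). Trim25, the ubiquitin ligase that activates RIG-I, had 85.1 to 87.9 CPM in wild-type livers, the tightest range of all members (coefficient of variation 1.52%), and 65.3 to 98.2 CPM in heterozygous livers. Isg15, the ubiquitin-like modifier itself, and Usp18, the protease that removes it, had log2 fold changes of -0.0010 and -0.08.

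Of the 5 remaining type I genes, 3 had lower means. Ifi44 had 2.55, 2.07, 1.58 and 1.89 CPM in wild-type livers, and 1.37, 0.848, 1.74 and 1.55 CPM in heterozygous livers (-0.56, SE 0.27, edgeR adjusted p = 0.561). W76 and H15 were the libraries through which the groups overlapped. Rtp4, a chaperone of receptors, had 5.40 to 7.87 and 4.199 to 6.75 CPM (-0.17, SE 0.19). Xaf1, which antagonises the apoptosis inhibitor XIAP, had 2.38 to 4.36 and 2.21 to 3.90 CPM (-0.24, SE 0.26). Ifi35 and Ifi27 had log2 fold changes of 0.01 and 0.11. Ifi27, which encodes a mitochondrial protein, was highest in H75 at 83.6 CPM and lowest in H11 at 44.0 CPM, a wider range than the 50.8 to 59.8 CPM of wild type.

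W32 was the highest of the 8 libraries in 6 of the 7 interferon-gamma and antigen processing genes, all but Irf1. Guanylate-binding proteins are GTPases that attack the vacuoles of intracellular pathogens. Gbp7 had 15.9, 7.72, 6.78 and 6.62 CPM in W32, W33, W76 and W90, and 8.43, 6.16, 6.12 and 5.75 CPM in heterozygous livers (-0.49, SE 0.29, edgeR adjusted p = 0.638). Gbp3 had 9.30, 3.97, 4.55 and 3.18 CPM, against 5.46, 2.97, 3.74 and 5.003 CPM (-0.29, SE 0.34). Gbp2 had 6.06, 3.68, 3.01 and 2.61 CPM, against 5.62, 3.24, 2.42 and 2.85 CPM (-0.12, SE 0.33). In all 3 genes W32 was the highest library and the other wild-type libraries overlapped the heterozygous libraries. Without W32, Gbp7 had a log2 fold change of -0.09, and Gbp3 and Gbp2 turned to 0.14 and 0.19.

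The antigen processing genes had the same high library. Psmb9, a catalytic subunit of the immunoproteasome, had 17.2, 9.79, 10.9 and 8.43 CPM in wild-type livers, and 10.2, 9.63, 8.45 and 11.6 CPM in heterozygous livers (-0.22, SE 0.21, and 0.04 without W32). Tap1, a subunit of the transporter that carries peptides to MHC class I, had 28.6, 21.3, 19.0 and 13.2 CPM, against 20.2, 10.4, 16.9 and 14.96 CPM (-0.40, SE 0.25, edgeR adjusted p = 0.656). Psmb8, another immunoproteasome subunit, had 25.5, 18.8, 16.8 and 17.6 CPM, against 19.2, 20.8, 17.5 and 24.0 CPM (0.05, SE 0.15). W32 led all 3 genes. Psmb8 turned negative in 4 alternatives, with library totals as the scaling (-0.052) and without W76, W90 or H75 (-0.019, -0.0042 and -0.041).

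Set against each other, the classes had similar medians. The median log2 fold change was -0.16 for the 30 type I genes, of which 24 had lower means, and -0.22 for the 7 interferon-gamma genes, of which 5 had lower means. Without W32 the first was -0.11 and the second turned to 0.14. Within a library, the class median was taken over log2(CPM + 0.5) minus the wild-type mean of each gene. For the type I genes it was 0.10, -0.052, 0.02 and -0.12 in W32, W33, W76 and W90, and 0.03, -0.34, -0.16 and -0.026 in H11, H12, H15 and H75. H12 was lowest and the groups overlapped. For the interferon-gamma genes it was 0.60, -0.043, -0.18 and -0.39 in the wild-type libraries, and 0.03, -0.21, -0.38 and 0.04 in the heterozygous libraries. The spread between wild-type libraries (SD 0.43) exceeded the difference between the group means of -0.0030 and -0.13. The type I median minus the interferon-gamma median averaged -0.010 ± 0.35 in wild-type and 0.0067 ± 0.15 in heterozygous livers (SD, n = 4 each), so the balance of the classes differed by less than the spread between libraries.

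**Figure D3:**
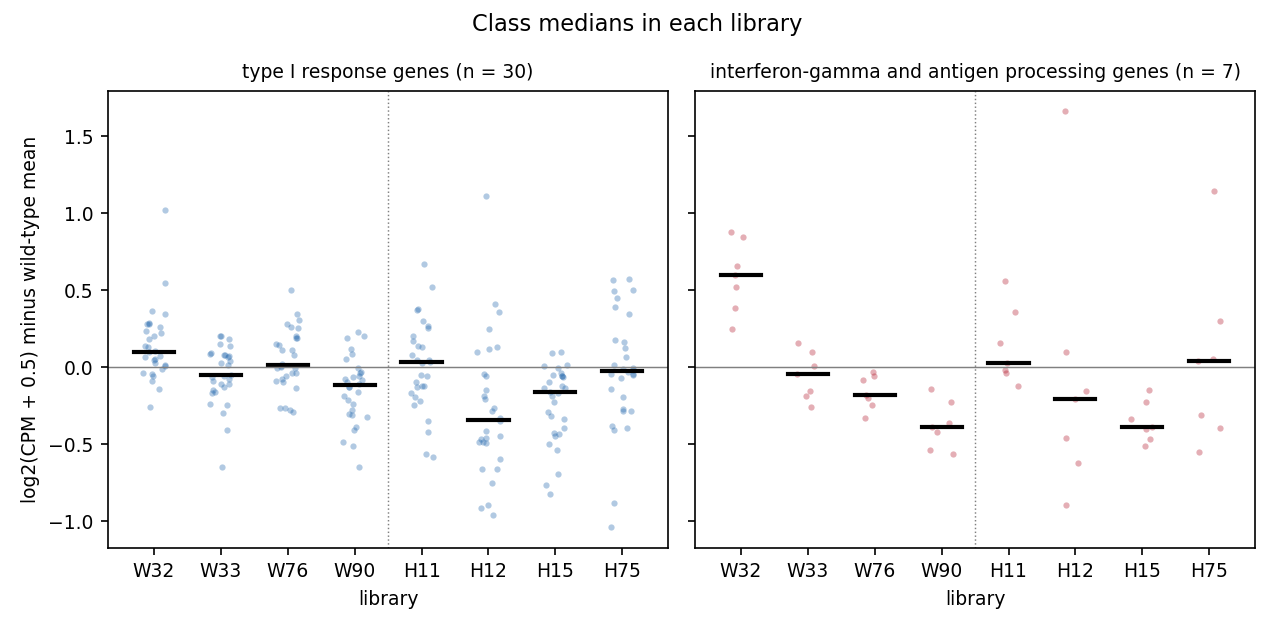
Median of each class (black bars) and its genes (points) in every library, as log2(CPM + 0.5) minus the wild-type mean of the gene. The interferon-gamma median is 0.60 in W32 and between -0.39 and 0.04 in the other 7 libraries.

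W32 exceeded the mean of the other wild-type libraries by over 1.5-fold in 5 of 7 interferon-gamma genes (Gbp3 2.39, Gbp7 2.26, Gbp2 1.96, Psmb9 1.77 and Tap1 1.604) but in 2 of 30 type I genes (Zbp1 2.93 and Usp18 1.72). It was the highest wild-type library in 7 of 7 interferon-gamma genes. Over all 37 members it was the highest of the 8 libraries in 16 (43.2%), compared with 11.04% of all genes tested. The pattern extended to listed genes outside the members that respond to interferon-gamma. Igtp, an immunity-related GTPase, had 73.5 CPM in W32, 17.9 to 19.0 CPM in the other wild-type libraries and 16.1 to 23.1 CPM in heterozygous livers. H2-Aa, an MHC class II gene, had 43.4 CPM in W32 and 13.4 to 20.01 CPM in the other wild-type libraries. In heterozygous livers it had 15.2 to 28.9 CPM, with H11 the highest. Markers of Kupffer cells, the resident macrophages of the liver, moved with part of this: all 10 were detected in every library and their sum was 323, 173, 199 and 134 CPM in W32, W33, W76 and W90. The sum was 316, 195, 144 and 259 CPM in H11, H12, H15 and H75. H11 had nearly the marker sum of W32 and an interferon-gamma median of 0.03. In 2 lists of genes outside the members, H11 came next after W32. Its median was 0.32 for guanylate-binding protein and immunity-related GTPase genes and 0.40 for MHC class II genes. The part of Kupffer cells in the class values was not tested, and in whole liver fewer cells of a type cannot be told apart from less RNA per cell. Ifng itself had 1 count in W76, 4 counts in H11 and 0 in the other libraries.

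**Figure D4:**
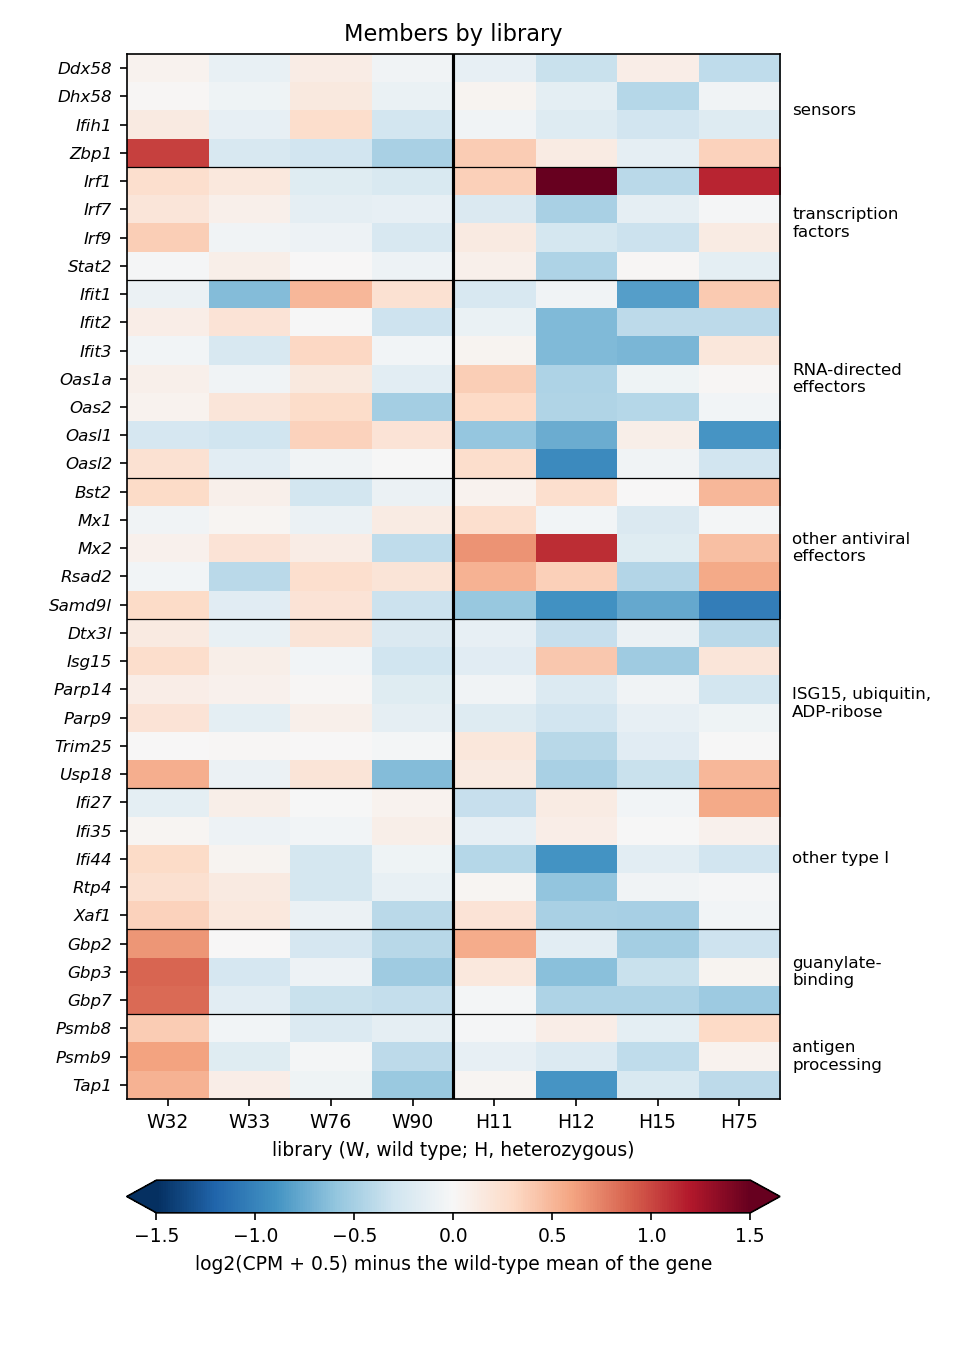
Log2(CPM + 0.5) of the 37 genes in each library relative to the wild-type mean of the gene, by role; values beyond the ends of the colour scale take its end colours. The guanylate-binding and antigen processing genes are high in W32, Samd9l is low in all 4 heterozygous libraries, and H12 and H15 are each the lowest library in 11 of 37 genes.

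Low members came mostly from 2 heterozygous libraries. H12 and H15 were each the lowest of the 8 libraries in 11 of the 37 genes (29.7%), where over all genes tested H12 was lowest in 17.8% and H15 in 12.7%. H12 was lowest in Stat2, Irf7, Ifit2, Oas1a, Oasl2, Trim25, Parp9, Ifi44, Rtp4, Gbp3 and Tap1. H15 was lowest in Ifih1, Dhx58, Irf1, Irf9, Ifit1, Ifit3, Mx1, Rsad2, Isg15, Xaf1 and Gbp2. Several comparisons turned on H15. Without H15 the groups did not overlap for 4 lower genes (Samd9l, Oasl1, Ddx58 and Ifi44), compared with 7.43% of all genes. They did not overlap for 3 higher genes (Irf1, Mx2 and Rsad2), compared with 5.99% of all genes. With all 8 libraries the shares of all genes were 2.32% lower and 2.06% higher, so leaving out H15 raised them beyond the members too. At an unadjusted p under 0.05, edgeR then gave 5 lower genes, these 4 and Dtx3l, compared with 8.14% of all genes, and the same 3 higher genes, compared with 7.84%. EdgeR called 0 of the 37 without H15, where it called 0.889% of all genes as lower and 0.848% as higher. DESeq2 without H15, an analysis added after the data were seen, called 2 lower members, Samd9l and Oasl1 (adjusted p = 0.00939), compared with 2.64% of all genes. It called 2 higher members, Irf1 and Mx2 (log2 fold change 0.85, adjusted p = 0.0246), compared with 2.72% of all genes.

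Signs of other cells moved with the genes for which H15 differed. The sum of 6 neutrophil markers was 0.340 to 0.920 CPM in wild-type livers, 3.13, 4.199 and 3.95 CPM in H11, H12 and H75, and 0.637 CPM in H15. The defining markers Ly6g and Mpo were at 0 in most libraries and went the other way. Each was highest in H15, at 0.085 and 0.255 CPM, and at 0 in H11, H12 and H75. The sum of 5 B cell markers was 14.8 to 34.9 CPM in wild-type livers, 7.31, 2.85 and 8.55 CPM in H11, H12 and H75, and 28.7 CPM in H15. In both sums H15 lay within or near the wild-type range, as it did in Irf1, Mx2, Rsad2, Oasl1 and Ddx58. Their part in these genes was not tested.

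Other genes of the pathway were counted from 7 lists, which name 135 genes, of which 132 were in the table and 117 were tested. EdgeR called 0 of the 117. At an unadjusted p under 0.05 it gave 2 lower genes (1.71%), compared with the 4.44% of all genes, and 6 higher genes (5.13%), compared with the 4.90% of all genes. Of the interferon genes in the lists, Ifna1, Ifna2, Ifna4, Ifna5, Ifnb1, Ifnl2 and Ifnl3 had 0 counts in all 8 libraries, which allows at most 3 counts or 0.102 to 0.150 CPM per library, counting error alone. Ifng had 1 count in W76, 4 in H11 and 0 in the other libraries. All 5 tested receptor chains had higher means in heterozygous livers, and Ifngr2 was the 1 with an unadjusted p under 0.05. Ifngr2, the signalling chain of the interferon-gamma receptor, had 11.2, 11.01, 12.0 and 12.3 CPM in wild-type livers, and 13.2, 23.1, 11.7 and 19.96 CPM in H11, H12, H15 and H75 (log2 fold change 0.55, SE 0.20, edgeR adjusted p = 0.473). H12 and H75 were high, as in Irf1, and H15 lay among the wild-type libraries. Ifnar1, a type I receptor chain, had 24.1 to 29.5 and 25.7 to 32.5 CPM (0.14, SE 0.11), with overlapping groups.

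Among the signalling factors and sensors outside the members, Irf8 and Irf5 had the lowest p-values. Irf8, a factor of macrophages and dendritic cells, had 5.42, 4.36, 3.08 and 4.09 CPM in wild-type livers, and 6.83, 10.4, 6.42 and 5.45 CPM in heterozygous livers (0.78, SE 0.23, edgeR adjusted p = 0.390). The groups did not overlap for Irf8, though H75 exceeded W32 by little. Over the 117 tested pathway genes they did not overlap for 2 higher genes, Irf8 and Daxx, compared with 2.06% of all genes. They did not overlap for 1 lower gene, Lgals9, compared with 2.32% of all genes. Irf5, which acts below Toll-like receptors, had 6.34, 7.40, 7.28 and 8.06 CPM, against 9.9996, 17.5, 7.69 and 13.2 CPM in H11, H12, H15 and H75 (0.73, SE 0.23, edgeR adjusted p = 0.405). Without H15 it was the 1 pathway gene that edgeR called (0.90, adjusted p = 0.0472), where edgeR called 0.848% of all genes as higher. Ikbke, a kinase that activates IRF3, reached 69.8 CPM in H12 and had 11.6 to 26.8 CPM in the other libraries. Myd88, the adaptor of Toll-like receptors, was higher by 0.36 (SE 0.12) and overlapped through H15.

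The 50 tested type I response genes outside the members had a median log2 fold change of -0.11, with 32 lower means. Eif2ak2, the PKR gene, had 16.3, 12.8, 14.1 and 12.0 CPM in wild-type livers, and 12.9, 10.9, 11.1 and 10.1 CPM in heterozygous livers (-0.30, SE 0.13, edgeR adjusted p = 0.510). The groups overlapped through H11 alone. Znfx1, a helicase that binds viral RNA, differed by -0.27 (SE 0.11, edgeR adjusted p = 0.493), and Ifitm2, which blocks viral entry, by 0.45 (SE 0.16). The 15 guanylate-binding protein and immunity-related GTPase genes had a median of -0.14 and the 7 MHC class II genes one of -0.20, and both lists were highest in W32, with library medians of 0.67 and 0.92. The 20 MHC class I and peptide loading genes had a median of 0.03.

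Per length of the gene, levels in wild-type livers spanned 617-fold among the members. On the scale of CPM per kilobase, Bst2 was highest at 133 ± 21.998 and Ifi27 next at 57.6 ± 4.02 (SD, n = 4 each). Trim25, Irf7, Stat2, Parp9, Psmb8 and Ifi35 followed at 15.6 to 11.7, and from Irf7 to Ifi35 each was closer to the next than their pooled SD. The lowest were Ifit2 (0.737), Oas2 (0.726), Ifi44 (0.696) and Mx1 (0.216). Of the 36 pairs of neighbours in this order, 27 lay closer than their pooled SD. In heterozygous livers Irf1 stood at rank 3 instead of 9, at 17.6 ± 10.2, and Samd9l at rank 30 instead of 23, at 1.30 ± 0.20.

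**Figure D5:**
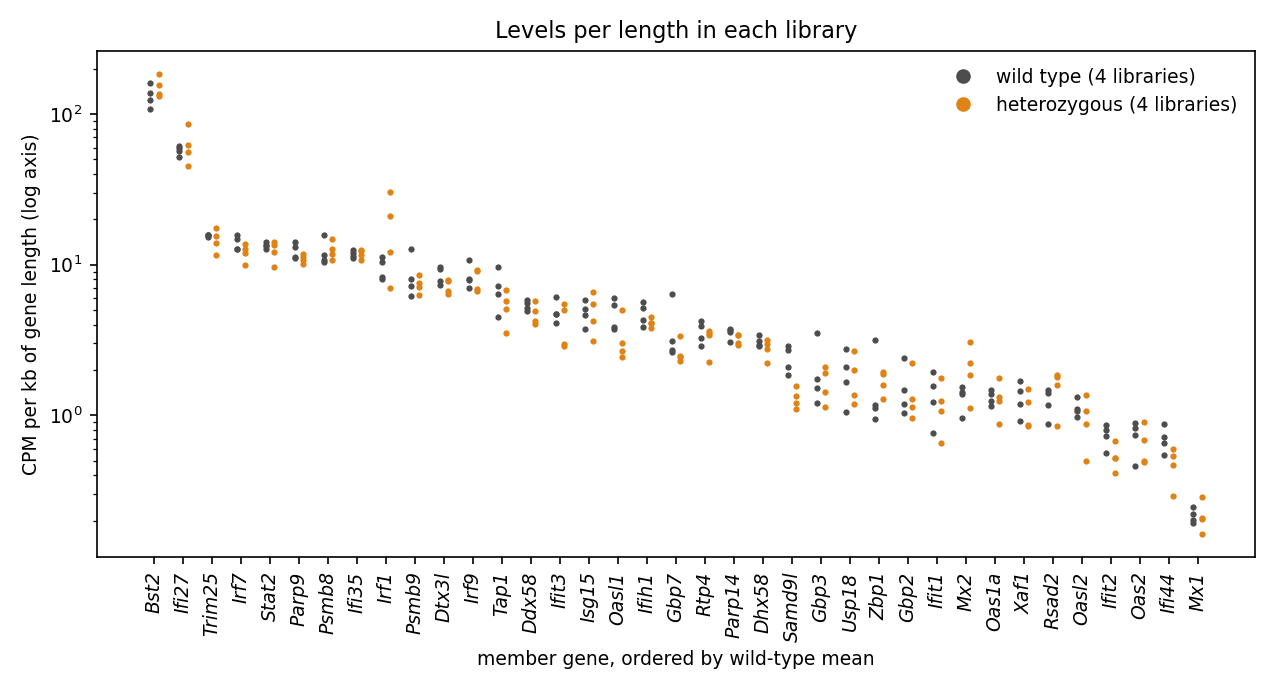
CPM per kilobase of gene length (log axis) of the 37 genes in each wild-type and heterozygous library, ordered by the wild-type mean. Bst2 at 133 and Mx1 at 0.216 are the ends of the order, and the heterozygous points of Irf1 are the most spread, from 7.06 to 30.2.

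Some members share reads with a neighbour, which limits what is known of each alone. Parp9 and Dtx3l are transcribed from opposite strands with 458 shared exon bases, and Psmb9 and Tap1 share 212. Parp9 and Dtx3l had fractional counts in all 8 libraries, and the sum of the pair was whole within 0.02 in 6 of them. Psmb9 had fractional counts in 4 libraries, in all of which its sum with Tap1 was whole. Taken as a pair, Parp9 and Dtx3l had 89.4 ± 11.003 CPM in the wild type, compared with 77.3 ± 4.88 CPM in heterozygotes (log2 ratio -0.21). Psmb9 and Tap1 had 32.1 ± 10.04 and 25.6 ± 4.27 CPM (-0.33, SD, n = 4 each). Irf9 shares 123 exon bases with Rnf31, Rtp4 296 with Gm45338 and Gbp7 637 with Gm43802, all on the same strand. In all, 13 of the 37 genes had a fractional count in at least 1 library. Samd9l, Oasl1 and Irf1 had whole counts throughout, though Oasl1 and Irf1 overlap a transcript of the opposite strand with 4 and 24.0 counts in all. The strand setting of the counting is among the items not given in the sources used here, and genes of the Ifit, Oas, Mx and Gbp families have close copies to which reads could be assigned.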

How the data were processed

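Livers of 4 wild-type and 4 heterozygous mice were sequenced after DNaseI treatment and removal of ribosomal RNA, per the labels' protocols. The build mm10 and the tools fastp 0.19.5, Bowtie2 2.2.9, GATK 3.8 and SAMtools 1.9 are named in the submitters' processing notes, without roles. The counting program and its strand setting were among the details not given in the sources used here. A deposited count table gives unnormalized estimated counts made by the authors, of which 90.0% are whole. The authors' deposited table of comparisons gives log2 fold changes and p-values with adjusted p-values, per the file headers.

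Counts were rounded to whole numbers, filtered with filterByExpr, normalized with TMM (factors of 0.900 to 1.06) and compared in edgeR 4.0.16 under R 4.3.3 (quasi-likelihood F-test on group alone) with Benjamini-Hochberg adjustment over 14261 genes. SE is the size of the log2 fold change divided by the square root of F. DESeq2 1.42.0, limma-voom (limma 3.58.1), other scalings and filters, and leaving out each library were alternatives. Depth was 22177979 to 28564357 counts per library. No library was a duplicate of another in its group (chi-square per gene 20.2 to 163 over pairs). The models were also run on counts simulated with the fitted spread of each gene. No library was made to deviate there, so that run does not show how the models handle H15 or W32. Positions and exon overlaps came from GENCODE mouse release M21, promoters from RefSeq on GRCm38.p6.

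The members and lists were chosen with earlier results of these data known. Values per library were given for at most 3 members per role, those of lowest p, for members whose groups did not overlap, for Irf1, Stat2 and Irf9, and for at most 4 genes of each list of other pathway genes, again by p. Other genes were named after their values were seen.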

Additional observations from a re-analysis of the deposited data

Results flagged for a closer look

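In 7 of 136 groups of 4 libraries, the highest or lowest value stood apart from the other 3 by more than Dixon's 95% limit allows for the range of the group. Chance gives about 1 in 20 such groups, and the share here was 5.15%. W32 was the high wild-type library in 3 of them: Zbp1 (6.30 CPM), Gbp7 (15.9 CPM) and Igtp (73.5 CPM). H11 was the high heterozygous library in Gbp7 (8.43 CPM). H12 was the low heterozygous library in Rtp4 (4.199 CPM), and W90 the low wild-type library in Trim25 (85.1 CPM), where the whole range was 85.1 to 87.9 CPM. H15 was the high heterozygous library in Gbp11 (5.78 CPM), a guanylate-binding protein gene outside the members.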

How the results depend on the processing

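Among the 53 genes chosen by the naming rule, 43 kept their sign under all 19 alternatives. Of the 12 members outside the rule, 9 had the other sign under at least 1 alternative (Zbp1, Ifit1, Oas1a, Mx1, Isg15, Usp18, Trim25, Ifi35 and Ifi27). Usp18 (0.16), Isg15 (0.10) and Oas1a (0.016) were among these without W32. Also without W32, 9 of the 53 turned from negative to positive, and over the fits that left out 1 library they ran from -0.44 to 0.19 (Gbp2), -0.47 to 0.14 (Gbp3), -0.35 to 0.037 (Psmb9), -0.17 to 0.055 (Irf9), -0.89 to 0.12 (Igtp), -0.41 to 0.30 (H2-Aa), -0.41 to 0.28 (H2-Ab1), -0.41 to 0.34 (H2-Eb1) and -0.69 to 0.045 (Ciita). Gbp2 also turned without H15 in edgeR (0.025), DESeq2 (0.029) and limma-voom (0.040). Psmb8 turned with library totals alone (-0.052) and without W76, W90 or H75, over a range of -0.041 to 0.20. The count of members called as lower, 0 in edgeR, was 1 in DESeq2 and 2 in DESeq2 without H15, which also called 2 as higher. Of all genes, DESeq2 called 0.464% as lower, and without H15 it called 2.64% as lower and 2.72% as higher. At an unadjusted p under 0.05, lower members numbered 2 with library totals alone, without a filter, in DESeq2 and in limma-voom, and 5 in DESeq2 or limma-voom without H15. Higher members numbered 2 without a filter, in DESeq2 and with the newer quasi-likelihood method, 0 in limma-voom, and 3 in DESeq2 or limma-voom without H15. The share of all genes at an unadjusted p under 0.05 was not counted for these alternatives. Leaving out 1 library gave 1 to 5 lower members (5 without W90 or H15) and 0 to 3 higher members (0 without W33, W76, W90, H12 or H75), where 2.77 to 8.14% of all genes were lower and 2.99 to 7.84% higher. Groups that did not overlap then numbered 1 to 4 lower members (2 without W76, 3 without W90 or H11, 4 without H15) and 0 to 3 higher (1 without W32, 3 without H15), where 3.06 to 7.43% of all genes were lower and 2.80 to 5.99% higher. The median of the interferon-gamma genes ran from -0.43 to 0.14 over these fits, turning positive without W32, and that of the type I genes from -0.20 to -0.096. Without the 10 type I members that overlap exons of another gene, and without Oas1a, Ifit3 and Mx2, 17 were left with a median of -0.18. Without Irf1 the interferon-gamma median was -0.26. Other pathway genes called as higher ranged from 0 to 1 when 1 library was left out (1 without H15) and numbered 6 in DESeq2 without H15. Without H15, edgeR called 0.848% of all genes as higher and DESeq2 called 2.72%. Eif2s1 was called by DESeq2 with all libraries (-0.44, adjusted p = 0.0156) and without H15 (-0.41, adjusted p = 0.0288). Library totals alone moved the median of all genes to -0.079, and the type I median to -0.52 in H12 and -0.20 in H75. The cause of these changes was not tested. DESeq2 and limma-voom without H15 and the median without Irf1 were added after seeing the data. No paired analysis was possible because the columns of the count table carry no replicate number. Depth limits Mx1 most, with 13 to 24 counts per library.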
